A study of Mus musculus with 8 samples.

Results

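The lysosomal genes described here are 49 genes for cathepsins and other lysosomal proteases, glycosidases and sulfatases, lipid-degrading enzymes, membrane and transport proteins, subunits of the lysosomal proton pump and the transcription factors that act on lysosomal genes. They were picked out by gene symbol, with earlier results of these data known. All 49 were found, each in 1 row, among the 41018 gene rows of the deposited table. RNA was sequenced from 4 PC-EV and 4 PBS samples. The mice of both groups were female C57BL/6 mice of 5 to 8 weeks. The PC-EV-educated mice received 5 µg of extracellular vesicles (EVs) by retro-orbital injection 3 times per week for 3 weeks. The EVs came from PAN02, a pancreatic adenocarcinoma line of the mouse. The PBS mice received PBS by retro-orbital injection, for which the study gives no schedule of its own. Its results call the sequenced controls naive, and 1 label field calls them untreated. Cells with the integrin CD11b, found on granulocytes, monocytes and macrophages, were enriched on microbeads from marrow flushed out of femurs and tibiae once red blood cells had been lysed. For its qPCR of these cells the study states that each point was a pool of several animals, and for the sequenced samples it does not say whether mice were pooled.

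The value given below for each gene is a level: the larger of its PC-EV and PBS group means, as computed by the authors. The unit is RPKM, a count scaled to the exon length of the gene in kb and to the depth of the library. The sources used here do not name the unit, and RPKM was inferred from the values. A level is thus 1 pooled value per gene, with no value of single samples, no SD and no n beside it. The deposited comparison of PC-EV-educated with PBS mice was not analysed here, so no gene below is said to differ between the groups, and which group set a given level was not read. Sums, shares and ratios of levels below can therefore join PC-EV means of some genes with PBS means of others. They need not describe either group.

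Lysosomes are acidic organelles in which proteins, glycans and lipids brought in by endocytosis, phagocytosis and autophagy are broken down. A proton pump, the vacuolar ATPase, acidifies the lumen, most of the hydrolases reach it through mannose 6-phosphate receptors or sortilin, and the heavily glycosylated proteins of the limiting membrane shield it from digestion. In phagocytes the organelle degrades engulfed material and prepares antigen, and the factors Tfeb, Tfe3 and Mitf raise transcription of many lysosomal genes through E-box letters near their start sites.

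Because those letters lie in the promoters of many genes of the organelle, the sequences that carry them are shown first. A window of 300 bases (250 before to 50 after the transcript start, RefSeq, GRCm38.p6) was at hand for 43 of the 49 genes, in 54 promoters. Atp6v0d2, Ctsb, Ctsh, Npc1, Asah1 and Atp6v1h had no entry. The E-box CACGTG stood in a promoter of 13 of the 43 genes (30.2%), against 8.09% of all 27025 genes with a promoter in the same table, 8.91% of the protein-coding genes and 12.3% of the protein-coding genes with a level of at least 1 RPKM. The longer letters TCACGTG, or CACGTGA on the same strand, were found for 12 genes (27.9%), against 4.29% of all genes and 7.69% of the protein-coding genes with a level of at least 1 RPKM, and the palindrome TCACGTGA for 6 genes (14.0%), against 1.12% and 2.53% of those sets. CACGTG is its own reverse complement and TCACGTG and CACGTGA are the reverse complements of each other, so both strands were covered, and every longer match holds the shorter letters. The median GC content was 56.8% for the genes' promoters, against 52.7% for those of all genes, 56.3% for those of protein-coding genes and 61% for those of protein-coding genes with a level of at least 1 RPKM. No test was made of these shares, and a match is a run of letters, not a measured binding site.

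The stretches that hold the longer letters in these 12 promoters are printed 5′ to 3′ on the strand of the gene, from the highest level to the lowest, with up to 12 flanking bases and with the matches in capitals.
Ctsd (chr7:142387907-142388077, minus strand): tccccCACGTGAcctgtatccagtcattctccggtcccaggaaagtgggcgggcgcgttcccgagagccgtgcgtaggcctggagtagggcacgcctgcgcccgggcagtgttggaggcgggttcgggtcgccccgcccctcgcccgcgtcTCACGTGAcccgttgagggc
Lamp1 (chr8:13159087-13159163, plus strand): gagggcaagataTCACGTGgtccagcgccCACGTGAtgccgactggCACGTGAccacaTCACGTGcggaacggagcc
Atp6v0d1 (chr8:105566049-105566080, minus strand): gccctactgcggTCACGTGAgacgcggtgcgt
Ctsa (chr2:164833748-164833796, plus strand): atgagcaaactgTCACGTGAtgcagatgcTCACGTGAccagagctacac
Cln3 (chr7:126583339-126583397, minus strand): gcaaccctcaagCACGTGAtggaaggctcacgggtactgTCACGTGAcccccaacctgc
Lgmn (chr12:102439124-102439154, minus strand): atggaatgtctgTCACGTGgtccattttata
Glb1 (chr9:114401017-114401047, plus strand): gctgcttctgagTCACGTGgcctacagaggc
Sgsh (chr11:119355521-119355551, minus strand): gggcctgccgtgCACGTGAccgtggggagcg
Gla (chrX:134601181-134601245, minus strand): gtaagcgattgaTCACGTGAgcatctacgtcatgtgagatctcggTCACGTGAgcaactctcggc
Naglu (chr11:101070008-101070038, plus strand): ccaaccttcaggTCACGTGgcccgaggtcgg
Gaa (chr11:119267810-119267840, plus strand): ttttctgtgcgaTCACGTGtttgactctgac
Mcoln1 (chr8:3500435-3500492, plus strand): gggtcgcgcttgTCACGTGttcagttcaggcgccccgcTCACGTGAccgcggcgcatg

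Lamp1, a major glycoprotein of the lysosomal membrane, had 4 matches within 77 bases, centred at -58, -42, -25 and -12 bases from the transcript start. Ctsa carried the palindrome on both sides of its RefSeq start, at -9 and 8 bases, and in Atp6v0d1 the palindrome lay on the RefSeq start itself. These starts are not always the ends of the genes as bounded for the levels. For Ctsa, Cln3 and Lgmn the printed stretches lie inside those bounds, and the RefSeq start of Atp6v0d1 lies just outside them. Of the 43 genes with a promoter, 8 had 2 or more promoters. Gla had 2 palindromes, at -224 and -191 bases. Ctsl had only the 6 letters CACGTG, at -233 bases. Of the 21 matches over all 13 genes, 20 were of the longer letters, 8 were the palindrome and 12 had their centre within 100 bases before the start.

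**Figure D1:**
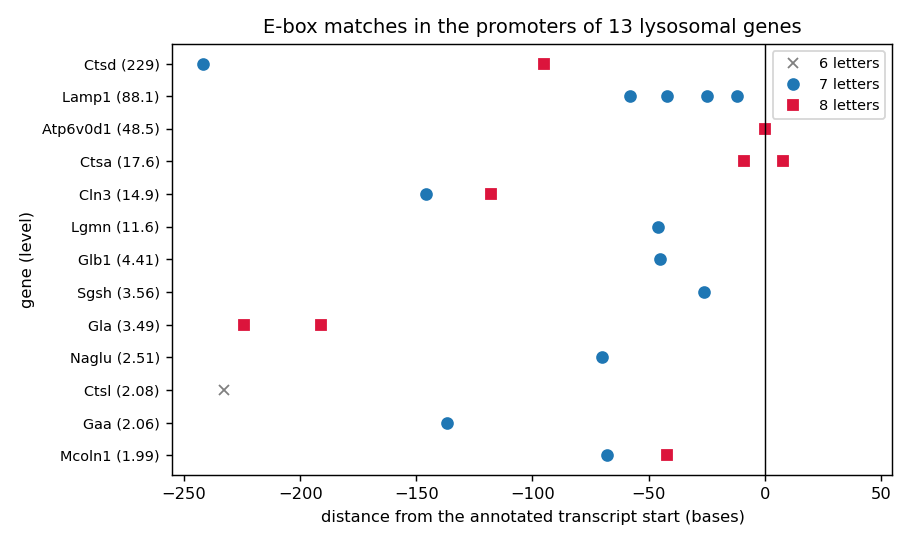
Positions of E-box matches in the promoters of 13 lysosomal genes. The x axis gives the distance of the centre of the 6 shared letters from the RefSeq transcript start in bases, each row is a gene with its level in RPKM, ordered from high to low, and the symbols mark matches of 6 (CACGTG), 7 (TCACGTG or CACGTGA) and 8 letters (TCACGTGA); 4 matches stand close together before the start of Lamp1.

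The matches were spread unevenly over the roles. The longer letters were found for 5 of 13 glycosidases and sulfatases (Gaa, Gla, Glb1, Naglu and Sgsh), 3 of 6 membrane proteins (Cln3, Lamp1 and Mcoln1), 3 of 9 proteases with a promoter (Ctsa, Ctsd and Lgmn) and 1 of 2 pump subunits (Atp6v0d1). None of the 7 lipid genes with a promoter, the 3 transcription factors, the 2 acid phosphatases or Grn had them in this window. The 12 genes with the longer letters had a median level of 7.99 RPKM (range 1.99 to 229), against 13.4 RPKM (range 1.27 to 380) in the 31 genes whose windows lacked them. Of the other lysosomal genes listed further below, 13 of 57 with a promoter (22.8%) held the longer letters.

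All 49 lysosomal genes had a level above 0, and 48 had a level of at least 1 RPKM. Of the 28225 genes with a level above 0, 32.7% reached 1 RPKM, and of the 18992 protein-coding genes among them 45.5% did. The median level was 13.3 RPKM for the lysosomal genes, against 0.102 RPKM for all genes and 0.568 RPKM for the protein-coding genes with a level above 0. A level of at least 10 RPKM was reached by 27 of the 49, and 27 lay in the top 10% of all genes with a level above 0, which began at 10.8 RPKM. That number was 16 when genes of at least 0.1 RPKM were ranked and 12 when genes of at least 1 RPKM were ranked. Psap and Ctsd stood in the top 1%, above 109 RPKM. Between the lowest gene (Atp6v0d2, 0.208 RPKM) and the highest (Psap, 380 RPKM) levels differed 1833-fold, and apart from Atp6v0d2 they fell into a broad range, with 21 genes between 1 and 10 RPKM, 24 between 10 and 100 RPKM and 3 at 100 RPKM or more. Together the 49 genes made up 0.388% of the summed level of all genes, and 38.8% of their own sum was Psap and Ctsd alone, with 71.8% in the 10 highest.

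**Figure D2:**
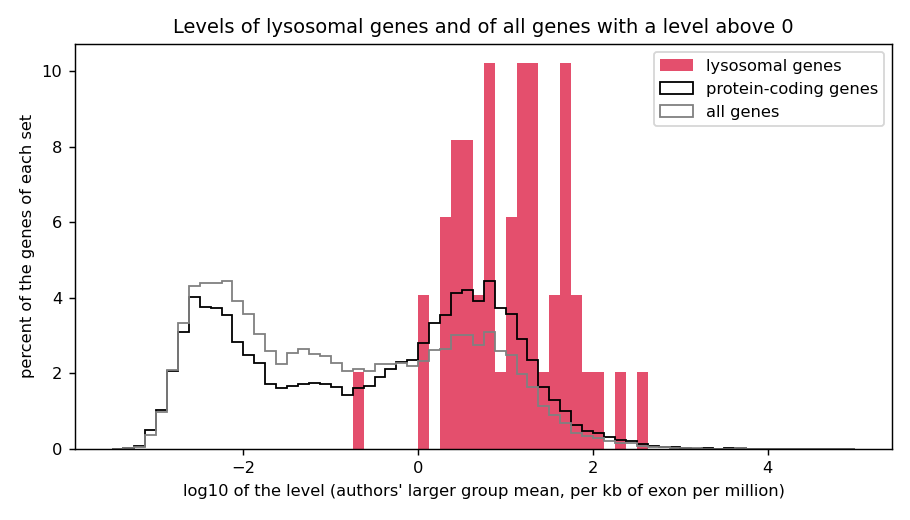
Distribution of the levels of the 49 lysosomal genes (filled), of the 18992 protein-coding genes (black line) and of all 28225 genes (grey line) with a level above 0. The x axis is log10 of the level in RPKM and the y axis the percent of the genes of each set in a bin; the lysosomal genes lie to the right of the low group that holds many of the other genes, with Atp6v0d2 apart from the rest.

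The depth behind these levels was estimated from the values. Levels of low genes multiplied by exon length fell on 8 sharp lowest steps, from which 8 libraries of 42.2 to 53.5 M counted reads or read pairs were read (the sources used here do not say which, and no library was assigned to a group). Counts of single libraries were not at hand. A level multiplied by exon length and by the lowest and the highest of these depths comes to 2134 to 2703 counts for the median lysosomal gene, 44070 to 55837 for Psap and 23.8 to 30.2 for Atp6v0d2, and to at least 1000 counts at the lowest depth for 34 of the 49. Exact Poisson 95% intervals, for such counts summed over the 4 shallowest libraries and covering counting error only, ran from 379 to 382 RPKM for Psap and from 0.168 to 0.253 RPKM for Atp6v0d2. In the order of levels, 20 of the 48 neighbouring pairs had overlapping intervals, among them Npc2 and Ctsa, Tfeb and Tfe3, Ctsl and Gaa, and Mitf and Ctsk. The spread between mice is not part of these intervals.

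**Figure D3:**
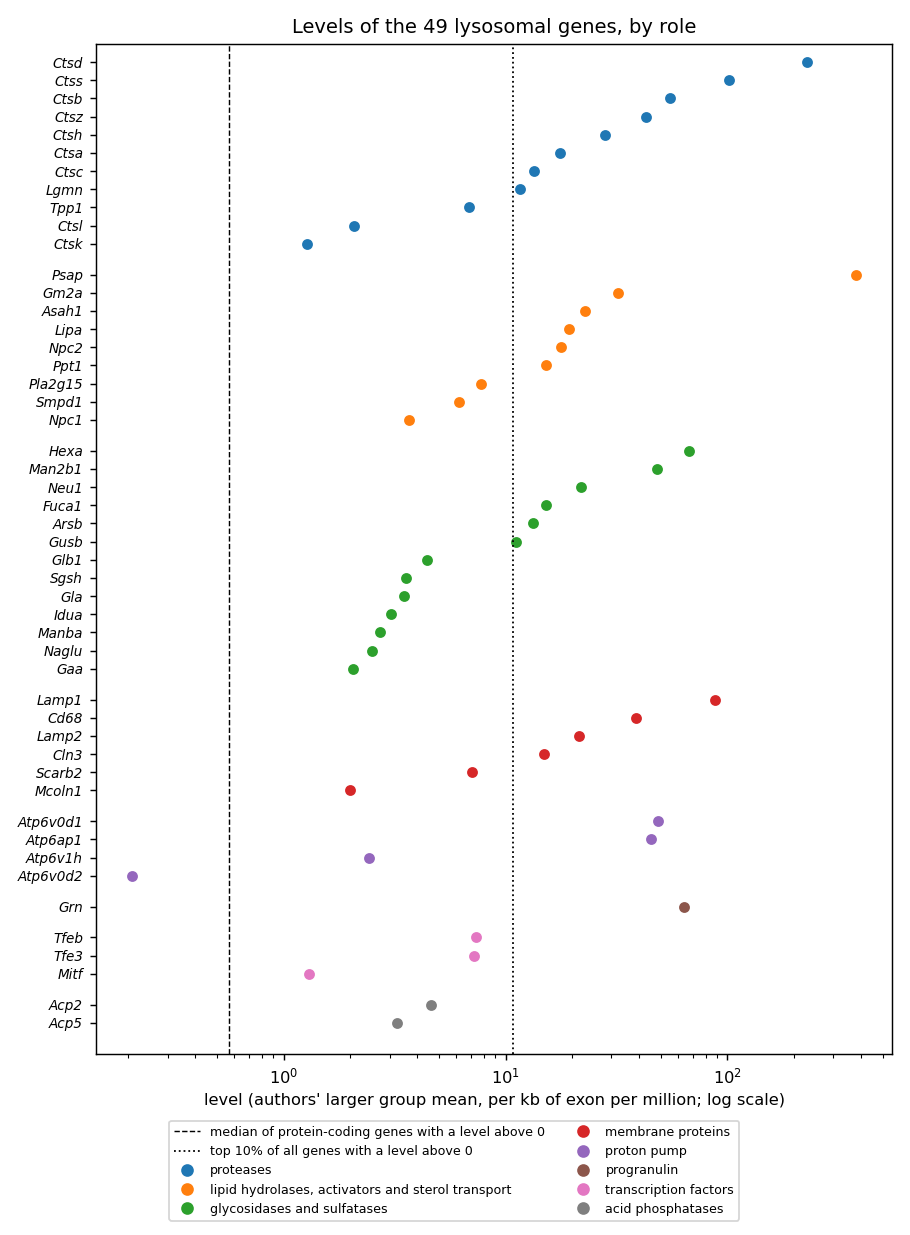
Level of each of the 49 lysosomal genes, grouped by role and ordered within a role. The x axis is the level in RPKM on a log scale, each point is 1 gene, the dashed line is the median of protein-coding genes with a level above 0 (0.568 RPKM) and the dotted line the lower bound of the top 10% of all genes (10.8 RPKM); only Atp6v0d2 lies left of the dashed line.

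Among the 11 proteases, the aspartic protease cathepsin D and the cysteine protease cathepsin S led. Ctsd (chr7:142375911-142388038, GRCm38, as are the coordinates below) had a level of 229 RPKM, exceeded by 0.457% of the genes with a level above 0. Ctss (chr3:95526786-95556403), whose product trims the invariant chain of MHC class II in antigen-presenting cells, had a level of 101 RPKM. They were followed by Ctsb (54.9 RPKM), a cysteine protease with both endopeptidase and dipeptide-removing activity, and Ctsz (43.0 RPKM), a carboxypeptidase. Ctsh, an aminopeptidase, had a level of 27.9 RPKM, and Ctsa, the serine carboxypeptidase that also protects neuraminidase and beta-galactosidase in a complex, one of 17.6 RPKM. Ctsc, which activates the serine proteases of neutrophil granules such as elastase, stood at 13.4 RPKM, and Lgmn, an asparaginyl endopeptidase that processes other cathepsins, at 11.6 RPKM. Below the top 10% of genes were Tpp1, a tripeptidyl peptidase, at 6.87 RPKM, Ctsl, a broadly acting endopeptidase, at 2.08 RPKM and Ctsk, the collagen-degrading protease of osteoclasts, at 1.27 RPKM. Ctsk and Ctss lie 17424 bases apart on the same strand of chromosome 3, and the level of Ctss was 79.5 times that of Ctsk. The proteases held 32.4% of the summed level of the 49 genes.

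Of the 9 genes for lipid degradation, its activator proteins and sterol export, Psap was far above the rest. Psap (chr10:60277627-60302597) encodes prosaposin, the precursor of the saposins, which present sphingolipids to their hydrolases. Its level of 380 RPKM ranked 67 among the 28225 genes with a level above 0, and it made up 75.3% of the sum for this role. Gm2a, the activator that lifts ganglioside GM2 to beta-hexosaminidase, had a level of 32.2 RPKM, so that Psap exceeded it 11.8-fold. Next came Asah1 (acid ceramidase, 22.7 RPKM), Lipa (acid lipase, which releases cholesterol and fatty acids from lipoprotein lipids, 19.3 RPKM), Npc2 (17.8 RPKM) and Ppt1 (a thioesterase that removes palmitate from proteins, 15.3 RPKM). Pla2g15, a phospholipase of the lysosome, had a level of 7.79 RPKM and Smpd1, acid sphingomyelinase, one of 6.18 RPKM. Lowest was Npc1 at 3.67 RPKM. Npc2 binds cholesterol in the lumen and hands it to the membrane protein Npc1 for export, and the level of the soluble partner was 4.85 times that of the membrane partner.

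The 13 glycosidases and sulfatases split into a high and a low set of genes. Hexa, the alpha subunit of beta-hexosaminidase (chr9:59539540-59565109), had a level of 67.1 RPKM, and Man2b1, an alpha-mannosidase that trims N-glycans, one of 48.0 RPKM. Neu1, the sialidase, stood at 21.9 RPKM, Fuca1, an alpha-fucosidase, at 15.2 RPKM, Arsb, which removes sulfate from dermatan and chondroitin sulfate, at 13.3 RPKM and Gusb, beta-glucuronidase, at 11.1 RPKM. These 6 genes lay in the top 10% of all genes. The other 7 had levels of 4.41 RPKM or less: Glb1 (beta-galactosidase, 4.41 RPKM), Sgsh (heparan sulfate sulfamidase, 3.56 RPKM), Gla (alpha-galactosidase A, 3.49 RPKM), Idua (alpha-iduronidase, 3.03 RPKM), Manba (beta-mannosidase, 2.72 RPKM), Naglu (an N-acetylglucosaminidase of heparan sulfate, 2.51 RPKM) and Gaa (the alpha-glucosidase of glycogen, 2.06 RPKM). The longer E-box letters were in the promoters of 5 of these 7 genes and of none of the 6 higher ones, a division made after the levels were seen. Of the complex that joins Ctsa, Neu1 and Glb1, the levels of Ctsa (17.6 RPKM) and Neu1 (21.9 RPKM) were close to each other, while Ctsa exceeded Glb1 3.99-fold. Acid phosphatases, which remove phosphate groups inside the organelle, were low by comparison: Acp2 had a level of 4.61 RPKM and Acp5, the tartrate-resistant enzyme used to stain osteoclasts, one of 3.23 RPKM.

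Of the 6 membrane proteins, Lamp1 (chr8:13159161-13175338) had a level of 88.1 RPKM and its relative Lamp2 one of 21.4 RPKM, a 4.11-fold difference per kb of all exons. Cd68, a scavenger-type glycoprotein widely used to mark macrophages, stood at 38.7 RPKM, and Cln3, the membrane protein lacking in juvenile Batten disease, at 14.9 RPKM. Scarb2, the receptor that carries glucocerebrosidase to the lysosome, had a level of 7.04 RPKM, and Mcoln1, the calcium channel mucolipin-1, one of 1.99 RPKM.

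The 4 proton pump subunits differed widely among themselves. Atp6v0d1 (chr8:105524465-105566047), the d subunit found in most tissues, had a level of 48.5 RPKM, and Atp6ap1, an accessory subunit of the pump, one of 45.3 RPKM. Atp6v1h, a subunit of the cytosolic part, stood at 2.43 RPKM. Atp6v0d2 (chr4:19876841-19922605), the other d isoform and one enriched in osteoclasts, was the only one of the 49 genes below 1 RPKM, at 0.208 RPKM, and the level of Atp6v0d1 was 234 times as high. Outside these roles, Grn, the precursor of the granulins, had a level of 63.8 RPKM, the sixth highest. The 3 transcription factors had levels of 7.36 RPKM (Tfeb), 7.23 RPKM (Tfe3) and 1.30 RPKM (Mitf), below the median of the 49 genes per kb of all exons (13.3 RPKM), but per kb of the principal transcript Tfe3 (20.4 RPKM) was above that median (19.9 RPKM) and Tfeb (18.2 RPKM) close to it. Mitf was the lowest of the 3 under both scalings, and Tfeb exceeded Mitf 5.65-fold.

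Shares by role followed a few abundant genes. The proteases (508 RPKM in all) and the lipid genes (505 RPKM) each held close to the same part of the summed level, 32.4% and 32.2%, whereas the glycosidases and sulfatases, the most numerous role, held 12.7%. The membrane proteins held 11.0%, the pump subunits 6.15%, Grn 4.07%, the transcription factors 1.01% and the acid phosphatases 0.500%. Median levels gave another order, with 23.8 RPKM for the 4 pump subunits, 18.2 RPKM for the membrane proteins, 17.8 RPKM for the lipid genes, 17.6 RPKM for the proteases, 7.23 RPKM for the transcription factors, 4.41 RPKM for the glycosidases and sulfatases and 3.92 RPKM for the acid phosphatases. This order was not kept per kb of the principal transcript, where the median was 33.3 RPKM for the membrane proteins, 32.5 RPKM for the pump subunits, 31.3 RPKM for the proteases, 27.8 RPKM for the lipid genes and 18.2 RPKM for the transcription factors. Without Psap the lipid genes would hold 10.5% of the summed level of the remaining genes, per kb of all exons. Per kb of the principal transcript, with Psap kept, the lipid genes held 28.7% of the summed level and the proteases 31.2%.

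The lengths used for scaling bore on some of these values. The RPKM values of the table are per kb of all exons of a gene joined, so a gene with long exons that only minor transcripts use has a lower level than its main transcript would give. Rescaled to the APPRIS principal transcript of GENCODE vM21, the levels of 16 of the 49 genes were more than 1.5 times higher. Atp6v1h had the largest change, with 11.6 RPKM per kb of the principal transcript against 2.43 RPKM per kb of all exons, and Mcoln1 followed with 7.30 RPKM against 1.99 RPKM. Ctsh came to 77.7 RPKM against 27.9 RPKM, which placed it seventh in place of fourteenth. The 4.11-fold gap between Lamp1 and Lamp2 shrank to 1.86-fold and that between Npc2 and Npc1, whose bounds in the table differ from that annotation, to 3.69-fold, whereas Tfeb over Mitf widened to 11.0-fold. The gaps between Ctss and Ctsk (79.7-fold) and between Atp6v0d1 and Atp6v0d2 (240-fold) stayed much as before, as did the places of Psap, Ctsd, Mitf, Ctsk and Atp6v0d2. In all, 11 genes moved by 5 or more places in the order of levels. The median ratio of the scalings was 1.30 for the 49 genes, against 1.22 for all protein-coding genes.

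**Figure D4:**
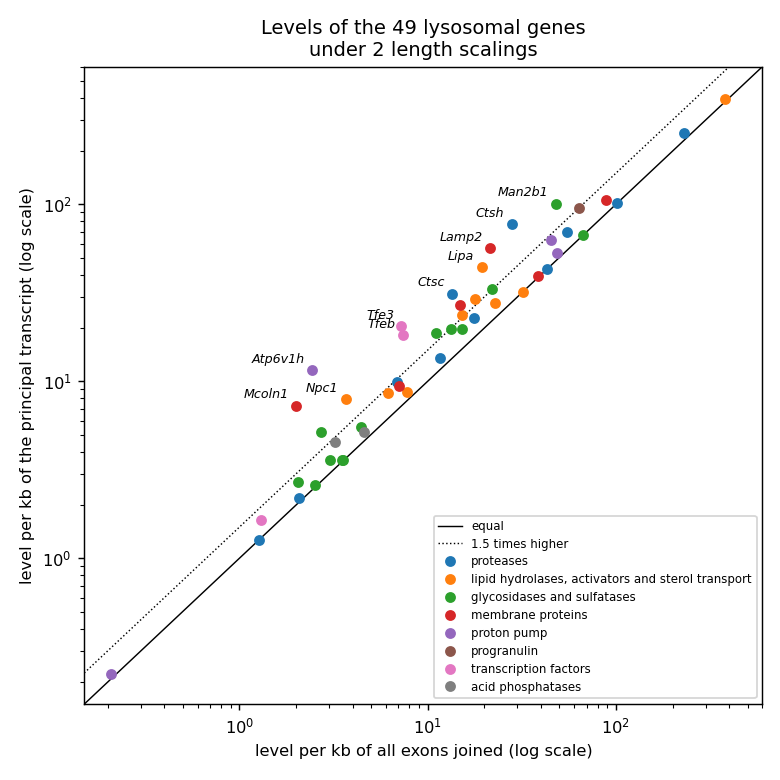
Levels of the 49 lysosomal genes per kb of all exons joined (x axis) and per kb of the APPRIS principal transcript (y axis), both in RPKM on log scales, coloured by role. The solid line marks equal values and the dotted line a value 1.5 times higher on the y axis; Atp6v1h and Mcoln1 lie farthest above the dotted line, and Psap, Ctsd and Ctss close to the solid line.

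A further 76 lysosomal genes were read in lists chosen, like the 49, with earlier results of these data known. All 76 were found, 63 had a level of at least 1 RPKM and 31 lay in the top 10%. Their median level was 5.76 RPKM, against 13.3 RPKM for the 49. Both medians depend on which genes were listed, and the 76 include pump isoforms near 0 RPKM. Of 21 further pump subunits, Atp6v0c (64.0 RPKM), Atp6v1g1 (56.5 RPKM) and Atp6v0b (41.4 RPKM) were the highest. The pump isoforms known from kidney and inner ear, Atp6v1b1 (0.00481 RPKM) and Atp6v0a4 (0.00432 RPKM), were near 0, and Atp6v1e2 was listed at 0. Tcirg1, the a3 subunit of the pump, which osteoclasts need to resorb bone, had a level of 25.4 RPKM, unlike Atp6v0d2. Among 22 further enzymes, 19 had a level of at least 1 RPKM. Galns, a sulfatase, had a level of 28.8 RPKM, and Rnaset2b, a ribonuclease whose reads may be shared with a near-identical copy, one of 23.4 RPKM.

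Of 16 further membrane proteins, Laptm5, a transporter-like protein of blood cells, had a level of 152 RPKM, above Lamp1, followed by Cd63 (32.9 RPKM), a tetraspanin of late endosomes, and Laptm4a (24.8 RPKM). Of the 5 genes that deliver enzymes to the organelle, Sort1, sortilin, which carries prosaposin, had a level of 55.6 RPKM, and the mannose 6-phosphate receptors M6pr and Igf2r had levels of 21.0 and 14.0 RPKM. Of 12 genes of nutrient sensing at the lysosomal surface, the Ragulator subunits Lamtor4 (47.3 RPKM), Lamtor5 (18.5 RPKM) and Lamtor2 (17.1 RPKM) were the highest. Tfec, the remaining relative of Tfeb, had a level of 1.33 RPKM per kb of all exons, close to that of Mitf on the same scaling.

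The fraction was set beside markers of the cells it could hold, while the gene of the sorted antigen itself was not analysed here. Neutrophil transcripts were the most abundant: S100a9 had a level of 42151 RPKM and Ly6g, a surface protein of neutrophils, one of 247 RPKM, and all 12 neutrophil markers were in the top 10% of genes with a summed level of 93835 RPKM. Granulocyte precursor genes were present as well, with Fcnb at 243 RPKM and Elane at 226 RPKM. Of the monocyte markers, Ly6c2 was the highest with 189 RPKM and Ccr2 stood at 24.6 RPKM. Among the macrophage markers, which include Hmox1 (62.6 RPKM), C1qa (34.7 RPKM) and Adgre1 (21.0 RPKM), the median was 20.6 RPKM. Which of these cells the lysosomal transcripts came from was not tested, and more cells of a type and more RNA per cell cannot be told apart in such bulk samples.

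Ctsk, Acp5 and Atp6v0d2 are also genes of osteoclasts, the bone-resorbing cells, so markers of that cell type were read beside them. Of 8 such markers, with a median of 0.0356 RPKM, Nfatc1 (15.4 RPKM) and Itgb3 (15.0 RPKM) were well above 1 RPKM. Tnfrsf11a stood between at 0.611 RPKM. The calcitonin receptor Calcr (0.00301 RPKM), Oscar (0.0283 RPKM), Dcstamp (0.0160 RPKM), Ocstamp (0.0429 RPKM) and Siglec15 (0.0137 RPKM) were near 0. Lymphoid and erythroid genes were low beside the myeloid ones, with a median level of 0.310 RPKM for B cell markers (highest Cd79b, 3.54 RPKM), 0.408 RPKM for T and NK cell markers (highest Nkg7, 17.1 RPKM, and Cd3e, 0.109 RPKM) and 0.520 RPKM for erythroid markers (highest Hbb-bs, which has near-identical copies, 57.6 RPKM). The highest marker of eosinophils, basophils and mast cells was Prg2 at 285 RPKM, with Epx at 22.3 RPKM.

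**Figure D5:**
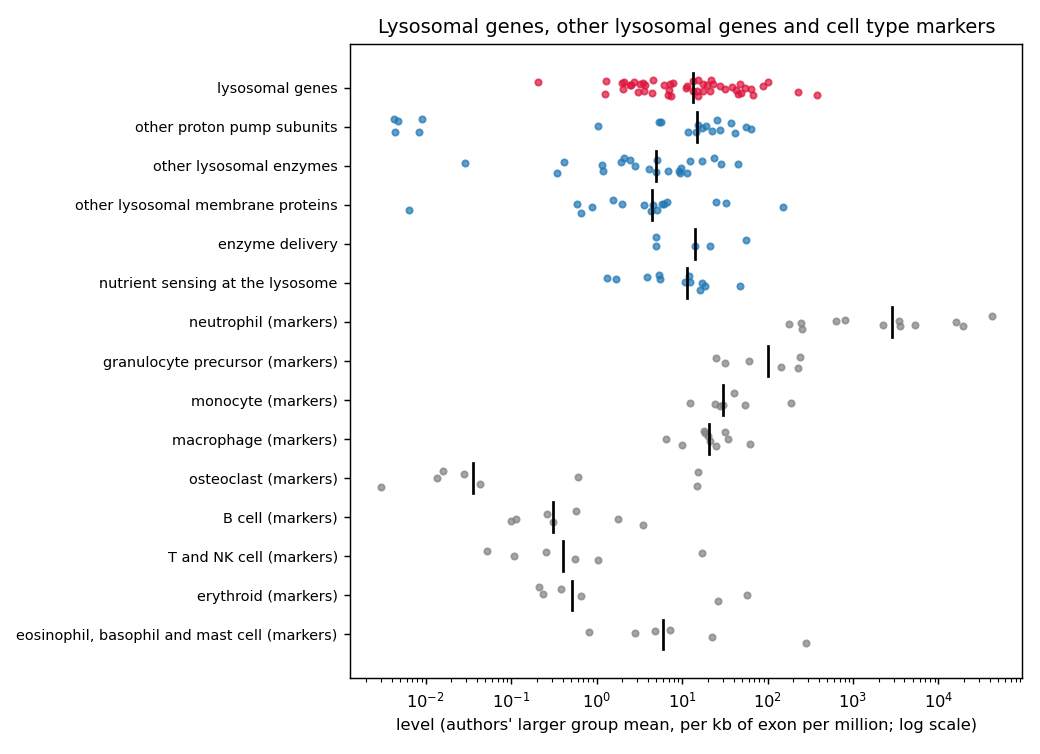
Levels of the 49 lysosomal genes (red), of 76 further lysosomal genes in 5 lists (blue) and of cell type markers (grey), in RPKM on a log scale. Each point is 1 gene and the black bar the median of the list, vertical scatter within a row has no meaning, and Atp6v1e2, listed at 0, is not drawn; the median of the neutrophil markers lies to the right of every lysosomal list and that of the osteoclast markers to the left.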

How the data were processed

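RNA of CD11b+ BM cells was sequenced by the authors with stranded libraries from 4 PC-EV and 4 PBS samples, and reads were mapped to GRCm38. The submitters' processing notes name edgeR, and the study's methods describe a negative binomial linear model tool influenced by it, so whether edgeR itself was run is not clear. No aligner, annotation release or version is named in the sources used here. The files deposited by the authors are 1 table of all genes with 5 columns of their own comparison of PC-EV-educated with PBS mice (log2 fold change, linear fold change, p-value, false discovery rate and Bonferroni-adjusted p-value), which were not used, and a second table of the differentially expressed genes, which was not used either. The remaining value of the deposited table is the larger of the group means, here an RPKM value by the authors, and it was taken as a pooled level.

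The sources used here do not name the unit, which was inferred from the values by a method chosen after seeing the data. Each level was multiplied by the joined exon length of GENCODE vM21 (40934 of 41018 gene IDs matched). Of 4419 low genes, 4277 (96.8%) fell on 8 steps of at least 300 genes each (relative tolerance 1e-05), and each step gives the depth of a library. The bounds of 48 of the 49 genes equalled those of GENCODE vM21, and those of Npc1 did not.

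Levels were ranked among the 28225 genes with a level above 0, summed by role and set beside lists of other lysosomal genes and of cell type markers. Every one of the 49 genes is named. Of each further lysosomal list the 3 highest genes and any gene at 0 are named, and of each marker list the highest and a defining gene; Tcirg1, Tfec, Atp6v1b1, Atp6v0a4 and the other markers were chosen after their values were seen. A few genes under this rule are not reported here. The members and lists were chosen with earlier results of these data known. Promoter letters were counted in RefSeq promoters (GRCm38.p6). Alternatives were other sets of ranked genes, other denominators, other motif letters and 2 other length scalings; the length scalings were added after seeing the data. No test was made: the tests planned for values of single samples, and protein identities, were not analysed here. PC-EV and PBS samples are named by the labels, of which 1 field calls the PBS mice untreated. Python 3.11.15, pandas 2.3.3, numpy 2.4.6, scipy 1.17.1 and matplotlib 3.10.9 were used.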

Additional observations from a re-analysis of the deposited data

How the results depend on the processing

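With a level of at least 0.1 or of at least 1 RPKM as the limit, 49 and 48 of the 49 genes counted as measured. The number in the top 10% of genes was 27 among genes with a level above 0, 20 among protein-coding genes and 21 among protein-coding genes per kb of the principal transcript. It came to 16 when genes of at least 0.1 RPKM were ranked and to 12 when those of at least 1 RPKM were ranked, since fewer low genes then stand in the ranking. The percent of genes above a lysosomal gene changed by more than 1.5-fold for all 49 genes under the first of these limits and for all 48 still ranked under the other. Under these limits that outcome was fixed beforehand, because the genes above a lysosomal gene stay the same and only the number ranked falls. Among protein-coding genes it changed by more than 1.5-fold for none. The share of the summed level was 0.388% with all genes, 0.391% without mitochondrially encoded genes and 0.574% with protein-coding genes. It was 0.803% without the 10 genes of highest level and 0.673% without the length scaling. The 13 genes with CACGTG compared with 12 for the longer letters and 6 for TCACGTGA. Of the levels, 33 stayed within 1.5-fold per kb of the principal transcript and 16 did not. Of 7 shares by role, 6 changed by more than 1.5-fold without the role's highest gene.

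No paired analysis was possible because only 1 pooled level per gene was used, with no value of single samples. For the same reason the replicate block, another pseudocount and leaving out each replicate were not run. The levels carry no spread between mice, the larger group mean is at least as high as the mean over all 8 samples, and counting limits are widest for Atp6v0d2 and Ctsk.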
